A study of Homo sapiens with 11 samples.

Results

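The genes described are 9 members of the fibroblast growth factor (FGF) system: the receptors FGFR1, FGFR2, FGFR3, FGFR4 and FGFRL1 and the ligands FGF1, FGF2, FGF5 and FGF18. They were taken by name from a count table of 58721 genes, and 9 of 9 passed the filter on low counts. On GRCh38 they lie at chr8:38400215-38468834 (FGFR1), chr10:121478334-121598458 (FGFR2), chr4:1793293-1808872 (FGFR3), chr5:177086886-177098144 (FGFR4), chr4:1009936-1026897 (FGFRL1), chr5:142592178-142698070 (FGF1), chr4:122826708-122898236 (FGF2), chr4:80266599-80336680 (FGF5) and chr5:171419656-171457623 (FGF18). The cells were A375, an established human melanoma line with an activating BRAF mutation. The labels give the genotype of the cells as WT, and their poly(A) RNA was sequenced. The 5 withdrawn libraries came from persister cells 4 weeks after the drug was taken away, the 5 persister libraries from cells held in 2 nM trametinib for 8 weeks, and the 1 parental library from untreated cells. Trametinib inhibits the MEK kinases, which lie below FGF receptors and BRAF in the same cascade. Each withdrawn library carries the number of its persister culture, all libraries derive from 1 cell line, and the labels do not say whether the cultures were selected separately, so the spread between them may be technical.

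FGF ligands bind receptors together with heparan sulfate chains at the cell surface. FGFR1 to FGFR4 are tyrosine kinases that signal through the adaptor FRS2 to RAS, RAF, MEK and ERK, while FGFRL1 binds ligand but lacks a kinase domain. In melanoma FGF2 is known as a growth factor that the tumour cells make themselves, and ERK activity downstream of FGF induces inhibitors of the same pathway.

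Each library held between 56513920 and 82984566 counted reads, and values below are CPM, counts scaled to a common library size by the TMM method. Persister libraries 1 and 5 stood apart: the mean log2 CPM of 18 S phase and mitosis genes was 5.88 and 4.59 there, against 7.13 to 7.60 in persister libraries 2 to 4, 7.27 to 7.39 in withdrawn and 7.51 in parental cells. Mitochondrial transcripts took 8.88% and 9.28% of counts in these 2 libraries, against 4.51% to 6.72% in persister libraries 2 to 4, 3.15% to 3.70% in withdrawn and 2.96% in parental cells. All 5 persister libraries thus lay above every other library, and the part of this difference in the results below was not tested. Of 9 melanocyte lineage markers, 5 reached 1 CPM in every withdrawn library, 7 in every persister library and 6 in the parental one. SOX10, which marks the lineage, was at 792 to 838 CPM in withdrawn, 29.2 to 86.6 CPM in persister and 635 CPM in parental cells. DCT, MLANA and TYRP1, which serve pigment production, lay the other way, with DCT at 16.4 to 64.1 CPM in withdrawn, 229 to 740 CPM in persister and 2.94 CPM in parental cells, MLANA at 0.445 to 0.826, 11.0 to 23.5 and 1.15 CPM, and TYRP1 at 0.0570 to 0.151, 2.26 to 7.43 and 0.122 CPM. TYR stayed below 0.1 CPM throughout, and the summed level of the list was 1057 to 1165, 404 to 1017 and 807 CPM in withdrawn, persister and parental cells. Of 8 fibroblast markers, 3, 4 and 3 reached 1 CPM in every library of the withdrawn, persister and parental groups, and their summed level was 21.2 to 32.2, 70.1 to 354 and 8.78 CPM. LUM was the largest part of the persister sum, at 2.37 to 5.56, 32.7 to 292 and 2.16 CPM in the 3 groups. PDGFRA lay the other way, at 3.60 to 4.50, 0.450 to 2.03 and 3.64 CPM. None of the 8 fibroblast markers was at 0 throughout, and the part of other cell states in the results below was not tested. The summed levels of 7 keratinocyte, 6 endothelial and 6 leukocyte markers were at most 60.0, 27.4 and 7.04 CPM in any library, with KRT1 at 0 throughout. In bulk RNA, fewer cells that express a gene and less RNA per cell cannot be told apart.

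Persister cells held less FGFR3, FGFR4 and FGF1 RNA and more FGF2 and FGF5 RNA than parental cells. These were 5 of the 9 members, 2 higher and 3 lower. Over all 23693 genes tested, 31.2% were called, 16.1% higher and 15.1% lower, with a threshold of 0.05 on the adjusted p of edgeR's quasi-likelihood test. With trametinib gone, all 5 moved back: in withdrawn against persister cells FGFR3, FGFR4 and FGF1 rose and FGF2 and FGF5 fell. FGFR1 and FGF18 also fell, so 7 of 9 members were called in that comparison, 3 higher and 4 lower, against 52.5% of all genes, 24.5% higher and 28% lower. FGF18 reached the filter's minimum count of 10 only in persister libraries, so it entered the test through the group where it was high. The median log2 fold change of the 9 members was -0.17 in both comparisons, and that of all genes tested was 0.09 for persister against parental cells and -0.03 for withdrawn against persister cells.

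**Figure D1:**
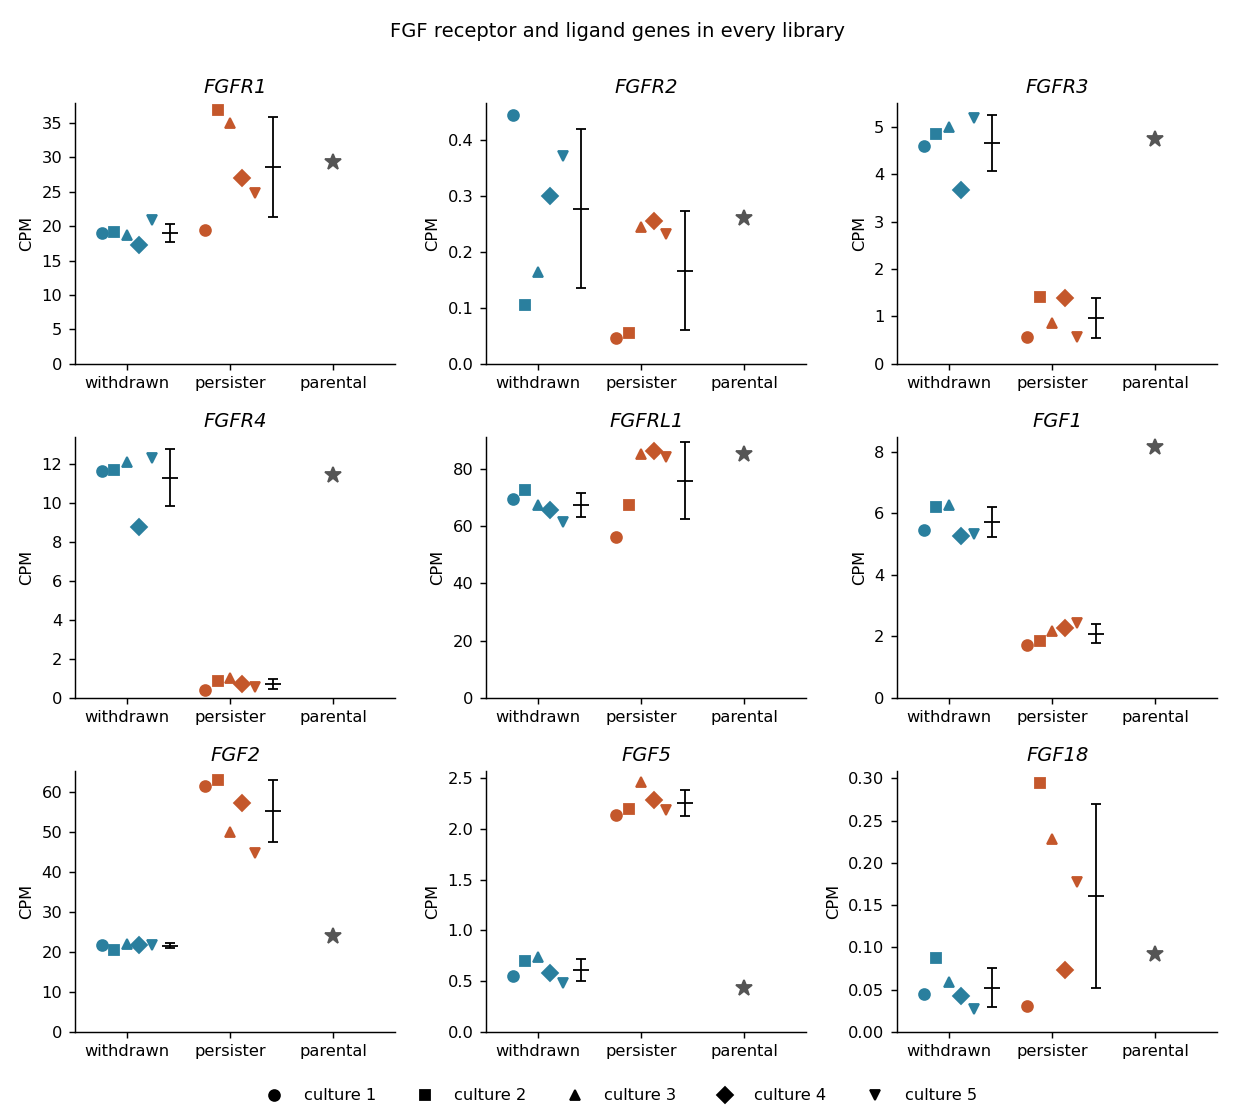
CPM of each gene (vertical axis) in the 5 withdrawn, 5 persister and 1 parental libraries; symbols mark the culture number, the star is the parental library, and bars are mean ± SD (n = 5). FGFR3, FGFR4 and FGF1 are low in all 5 persister libraries, and FGF2 and FGF5 are high in all 5.

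FGFR4, a receptor best known for binding FGF19 in the liver, changed most. It stood at 11.6, 11.7, 12.1, 8.76 and 12.3 CPM in withdrawn libraries 1 to 5, at 0.415, 0.848, 1.03, 0.693 and 0.574 CPM in persister libraries 1 to 5, and at 11.5 CPM in the parental library. Every persister library was below every other library, and the parental value lay within the withdrawn range. In persister against parental cells FGFR4 fell 16.1-fold (log2 fold change -4.01 ± 0.30 (SE), adjusted p = 5.38e-06). In withdrawn against persister cells it rose 15.9-fold (log2 fold change 3.99 ± 0.23 (SE), adjusted p = 1.97e-07), and culture by culture the rise was between 11.7-fold and 28.1-fold. The persister levels rest on 27 to 68 reads per library.

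FGFR3, a receptor known for its part in restraining bone growth, had the same shape at smaller size. Its levels were 4.61, 4.85, 5.00, 3.66 and 5.202 CPM in withdrawn libraries 1 to 5, 0.568, 1.42, 0.867, 1.39 and 0.574 CPM in persister libraries 1 to 5, and 4.74 CPM in the parental library. Again the withdrawn and persister libraries did not overlap. FGFR3 fell 4.92-fold in persister against parental cells (log2 fold change -2.30 ± 0.40 (SE), adjusted p = 0.00159) and rose 4.84-fold in withdrawn against persister cells (log2 fold change 2.28 ± 0.28 (SE), adjusted p = 4.28e-05). Both genes were lowest in persister libraries 1 and 5, the libraries with the least S phase and mitosis RNA. Without these 2 libraries the log2 fold changes of persister against parental cells were -1.95 for FGFR3 (adjusted p = 0.000392) and -3.74 for FGFR4 (adjusted p = 2.2e-06). The part of the difference in S phase and mitosis RNA in these 2 libraries was not tested.

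The stretches of 250 bases before the start sites of the members that moved together are shown for FGFR3 and FGFR4, which fell in persister cells, and for FGF2 and FGF5, which rose. The windows and motifs were chosen after the values were seen. Capitals mark GC boxes, GGGCGG on either strand, and the strands are + for all 4, read 5′ to 3′ from RefSeq on GRCh38.p14. The windows are chr4:1793043-1793292 for FGFR3, chr5:177086665-177086914 for FGFR4, chr4:122826581-122826830 for FGF2 and chr4:80266338-80266587 for FGF5. The table lists 2 starts each for FGFR4 and FGF5, of which the one nearer the GENCODE gene start is shown, and gene counts do not tell which start was used.
FGFR3: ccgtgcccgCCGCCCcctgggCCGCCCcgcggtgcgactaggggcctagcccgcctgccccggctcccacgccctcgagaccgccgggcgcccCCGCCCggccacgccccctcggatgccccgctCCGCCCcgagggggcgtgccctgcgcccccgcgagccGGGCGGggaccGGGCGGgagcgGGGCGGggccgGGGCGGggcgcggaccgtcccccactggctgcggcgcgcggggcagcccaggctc
FGFR4: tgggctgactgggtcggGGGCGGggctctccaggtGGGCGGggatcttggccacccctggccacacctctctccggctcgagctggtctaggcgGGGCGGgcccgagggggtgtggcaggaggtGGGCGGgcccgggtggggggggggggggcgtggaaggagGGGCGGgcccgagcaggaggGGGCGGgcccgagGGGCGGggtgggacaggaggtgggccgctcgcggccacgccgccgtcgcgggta
FGF2: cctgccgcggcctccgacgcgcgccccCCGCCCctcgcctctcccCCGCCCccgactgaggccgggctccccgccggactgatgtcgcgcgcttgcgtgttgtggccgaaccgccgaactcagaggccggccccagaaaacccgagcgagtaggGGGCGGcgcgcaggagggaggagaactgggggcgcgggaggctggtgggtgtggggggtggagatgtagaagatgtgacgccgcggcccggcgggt
FGF5: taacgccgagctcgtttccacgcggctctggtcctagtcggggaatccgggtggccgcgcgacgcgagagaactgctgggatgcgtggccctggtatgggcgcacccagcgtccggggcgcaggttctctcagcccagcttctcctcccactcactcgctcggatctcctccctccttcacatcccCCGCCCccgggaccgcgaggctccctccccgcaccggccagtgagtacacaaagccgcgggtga
The FGFR3 and FGFR4 windows hold 8 and 7 GC boxes and are 86.8% and 79.6% G or C. The FGF2 and FGF5 windows hold 3 and 1 GC boxes and are 75.2% and 68.8% G or C. FGF1, which fell as well, has 4 starts listed, and the window nearest its gene start holds 0 GC boxes. Its windows at chr5:142686091-142686340 and chr5:142644240-142644489 hold 1 GC box each, and the latter also 1 AP-1 site. Whether GC boxes go with the direction of change was not tested. Of all 35116 such windows in the table, 42.6% hold at least 1 GC box, 1.12% at least 7 and 0.584% at least 8. An AP-1 site (TGANTCA), an ETS site (CCGGAAG), an E-box (CACGTG) and a SOX site (AACAAAG) were searched on both strands as well. None of them occurs in the 4 windows shown, so none overlaps a GC box there. They occur in 6.57%, 8.52%, 6.34% and 4.5% of all windows. The windows of the second starts, not shown, differ. That of FGFR4 (chr5:177089300-177089549) holds 0 GC boxes and 1 E-box. That of FGF5 (chr4:80268018-80268267) holds 0 GC boxes and 1 SOX site. A match is a description of letters and not a binding site.

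FGFR1, the receptor widely expressed in mesenchymal tissues, was not called between persister and parental cells. Its levels were 19.0, 19.2, 18.7, 17.3 and 20.9 CPM in withdrawn libraries 1 to 5, 19.5, 36.9, 35.03, 27.0 and 24.8 CPM in persister libraries 1 to 5, and 29.3 CPM in the parental library. Persister library 1 lay within the withdrawn range and the other 4 persister libraries above it, with the parental value inside the persister range. The log2 fold change of persister against parental cells was -0.03 (95% confidence interval -0.62 to 0.56, adjusted p = 0.938). It was 0.17 (adjusted p = 0.444) without persister libraries 1 and 5. In withdrawn against persister cells FGFR1 fell 1.504-fold (log2 fold change -0.59 ± 0.16 (SE), adjusted p = 0.00795), and it was lower in 5 of 5 cultures, by 1.02-fold in culture 1 to 1.92-fold in culture 2. FGFR1 shares 138 exon bases with LETM2 and 156 with an antisense gene on the other strand, about 1% of its exons each.

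FGFRL1, the receptor without a kinase, was the most abundant member per length in every group. It stood at 69.5, 72.6, 67.5, 65.8 and 61.7 CPM in withdrawn libraries 1 to 5, at 56.4, 67.4, 85.4, 86.4 and 84.4 CPM in persister libraries 1 to 5, and at 85.4 CPM in the parental library. Persister libraries 3, 4 and 5 lay beside the parental value, persister library 2 lay within the withdrawn range and persister library 1 below it. It was called neither for persister against parental cells (log2 fold change -0.17, 95% confidence interval -0.61 to 0.28, adjusted p = 0.555) nor for withdrawn against persister cells (log2 fold change -0.17, 95% confidence interval -0.43 to 0.09, adjusted p = 0.241). Leaving out persister library 1 brought the second comparison past the threshold (log2 fold change -0.26, adjusted p = 0.0316).

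FGFR2, best known in epithelia, was close to silent. It had 30, 6, 11, 21 and 27 reads in withdrawn libraries 1 to 5, 3, 3, 16, 21 and 17 reads in persister libraries 1 to 5, and 17 reads in the parental library. These groups overlapped, and at this depth no difference was detectable. The log2 fold change was -0.61 for persister against parental cells (95% confidence interval -2.58 to 1.35, adjusted p = 0.628) and 0.71 for withdrawn against persister cells (95% confidence interval -0.47 to 1.89, adjusted p = 0.288).

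FGF2, which leaves cells without a classical signal peptide, was the most abundant ligand gene per length in every group. Its levels were 21.7, 20.5, 22.04, 21.8 and 21.7 CPM in withdrawn libraries 1 to 5, 61.5, 63.1, 49.985, 57.3 and 44.7 CPM in persister libraries 1 to 5, and 24.0 CPM in the parental library. All persister libraries lay above all others, and the withdrawn libraries lay closely together. FGF2 rose 2.30-fold in persister against parental cells (log2 fold change 1.20 ± 0.19 (SE), adjusted p = 7.81e-04) and fell 2.57-fold in withdrawn against persister cells (log2 fold change -1.36 ± 0.10 (SE), adjusted p = 1.01e-06). Culture by culture the level in persister cells was 2.06-fold to 3.08-fold that in withdrawn cells. Of its exon bases 11.9% overlap NUDT6, a gene on the opposite strand, and the strand setting of the counting is not given in the sources used here. NUDT6 stood at 3.45 ± 0.16 CPM in withdrawn, 2.81 ± 0.47 CPM in persister (SD, n = 5 each) and 2.19 CPM in parental cells and was called in none of the 3 comparisons.

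FGF5, known as the signal that ends the growth phase of hair follicles, was a low transcript that moved with FGF2. It had 0.548, 0.701, 0.741, 0.584 and 0.482 CPM in withdrawn libraries 1 to 5, 2.14, 2.19, 2.47, 2.29 and 2.19 CPM in persister libraries 1 to 5, and 0.428 CPM in the parental library. The parental value rests on 28 reads. The persister libraries were close to each other and far above the rest, with a coefficient of variation of 5.79%, the smallest of the 9 members in persister cells. FGF5 rose 5.24-fold in persister against parental cells (log2 fold change 2.39 ± 0.36 (SE), adjusted p = 6.51e-04) and fell 3.68-fold in withdrawn against persister cells (log2 fold change -1.88 ± 0.18 (SE), adjusted p = 6.27e-06). CFAP299, which overlaps 2.27% of its exon bases on the same strand, had at most 3 reads in any library.

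FGF1, a ligand that binds all of FGFR1 to FGFR4 and also lacks a classical signal peptide, went the other way. It stood at 5.47, 6.22, 6.27, 5.27 and 5.33 CPM in withdrawn libraries 1 to 5, at 1.70, 1.84, 2.16, 2.29 and 2.44 CPM in persister libraries 1 to 5, and at 8.15 CPM in the parental library. The 3 groups did not overlap, and the withdrawn libraries lay between the persister libraries and the parental one. FGF1 fell 3.90-fold in persister against parental cells (log2 fold change -1.96 ± 0.21 (SE), adjusted p = 7.34e-05) and rose 2.73-fold in withdrawn against persister cells (log2 fold change 1.45 ± 0.14 (SE), adjusted p = 8.46e-06). The rise was 2.18-fold to 3.37-fold in the 5 cultures. Among persister libraries, library 1 was the lowest for FGF1 and library 5 the highest.

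FGF18, a ligand of cartilage and bone development, was near the limit of detection. It had 3, 5, 4, 3 and 2 reads in withdrawn libraries 1 to 5, 2, 16, 15, 6 and 13 reads in persister libraries 1 to 5, and 6 reads in the parental library. In CPM the groups overlapped through persister libraries 1 and 4. Only persister libraries 2, 3 and 5 reached the filter's minimum count of 10, so FGF18 was tested through the group where it was high. It fell in withdrawn against persister cells (log2 fold change -1.59 ± 0.61 (SE), adjusted p = 0.0447), a call that ended under 9 of 15 alternatives, with adjusted p from 0.0125 to 0.129. Leaving out persister library 2, 3 or 5 or withdrawn library 1, 3, 4 or 5 was enough to end it. For persister against parental cells the log2 fold change was 0.78 (95% confidence interval -1.50 to 3.06, adjusted p = 0.595).

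**Figure D2:**
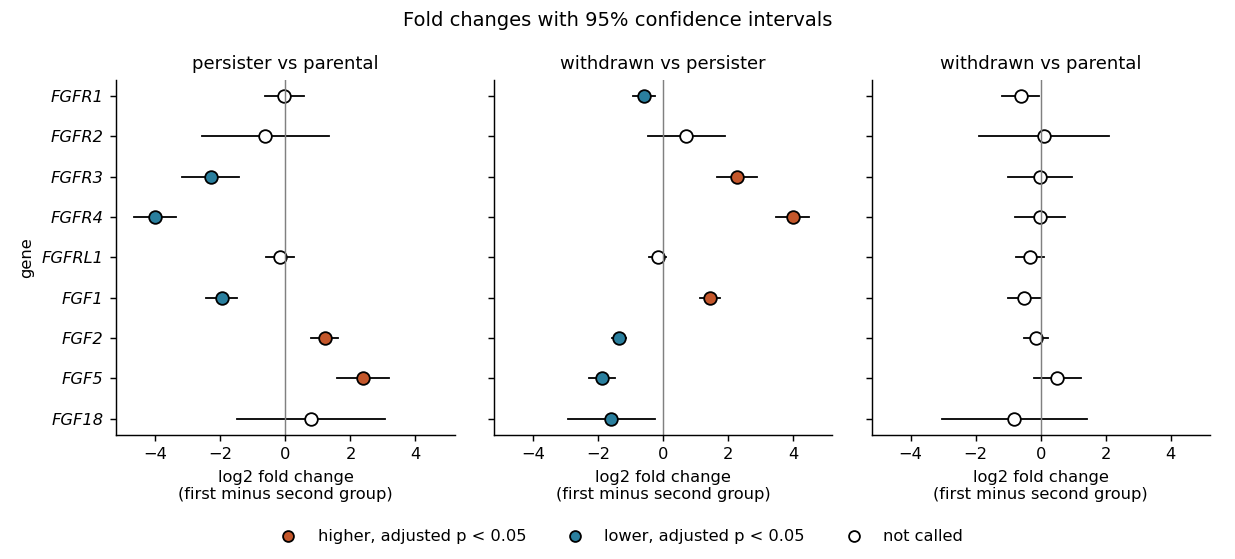
Log2 fold change of each gene (points) with its 95% confidence interval (lines) in the 3 comparisons, on a horizontal axis of first minus second group; filled points passed an adjusted p of 0.05. FGFR3, FGFR4, FGF1, FGF2 and FGF5 are filled in the first 2 panels on opposite sides of zero, and no point is filled for withdrawn against parental cells.

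The make-up of the receptor transcripts changed with these shifts. Levels were divided by the exon length of each gene to compare genes with each other, giving CPM per kb. FGFR1 made up 29.3% ± 1.86 of the summed FGFR1 to FGFR4 level in withdrawn cells, 85.1% ± 2.57 in persister cells (SD, n = 5 each) and 38.5% in parental cells. The difference of withdrawn minus persister cells was -55.8 percentage points (exact two-sided permutation test, p = 0.00794, the smallest that 5 against 5 can give). With same-numbered cultures taken as pairs the exact test gave p = 0.0625, the smallest that 5 pairs can give. The share was lower after withdrawal in 5 of 5 cultures. FGFR4 made up 49.6% ± 1.57 in withdrawn, 5.98% ± 0.749 in persister and 43.1% in parental cells, and FGFR3 20.4% ± 0.633, 8.05% ± 2.56 and 17.8%. The summed level of these 4 receptors was 4.71 ± 0.50, 2.44 ± 0.63 and 5.50 CPM per kb in withdrawn, persister and parental cells. These shares depend on the length used. With the longest basic transcript as length, FGFR1 held 40.0% ± 2.13 in withdrawn, 90.8% ± 1.55 in persister and 50.2% in parental cells, and FGFR4 45.8% ± 1.88, 4.32% ± 0.538 and 38.1%. Without length FGFR1 held 54.1% ± 2.14, 94.0% ± 1.17 and 64.0%, and FGFR4 32.0% ± 1.71, 2.31% ± 0.294 and 25.1%. FGFR1 therefore led in persister cells under all 3 settings, while the order of FGFR1 and FGFR4 in withdrawn and parental cells changed with the setting.

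Among the 4 ligand members, FGF2 held most of the transcript level in every library. It held 72.4% ± 2.29 of the summed level of FGF1, FGF2, FGF5 and FGF18 per kb in withdrawn cells, 90.4% ± 2.07 in persister cells and 68.1% in parental cells. FGF1 held 24.6% ± 1.73, 4.50% ± 1.17 and 29.7%, and FGF5 2.32% ± 0.363, 4.22% ± 0.642 and 1.37%. Their summed level was 4.39 ± 0.116 CPM per kb in withdrawn, 9.02 ± 1.09 in persister and 5.21 in parental cells. These ligand shares were not tested. FGF7, which is not a member, is left out of the sum. Its mean in persister cells was 0.686 ± 0.550 CPM per kb (SD), against 0.396 for FGF1 and 0.376 for FGF5. It ran from 0.0531 in persister library 1 to 1.49 in persister library 2. In withdrawn and parental cells FGF7 was at 0.0950 and 0.0184 CPM per kb.

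**Figure D3:**
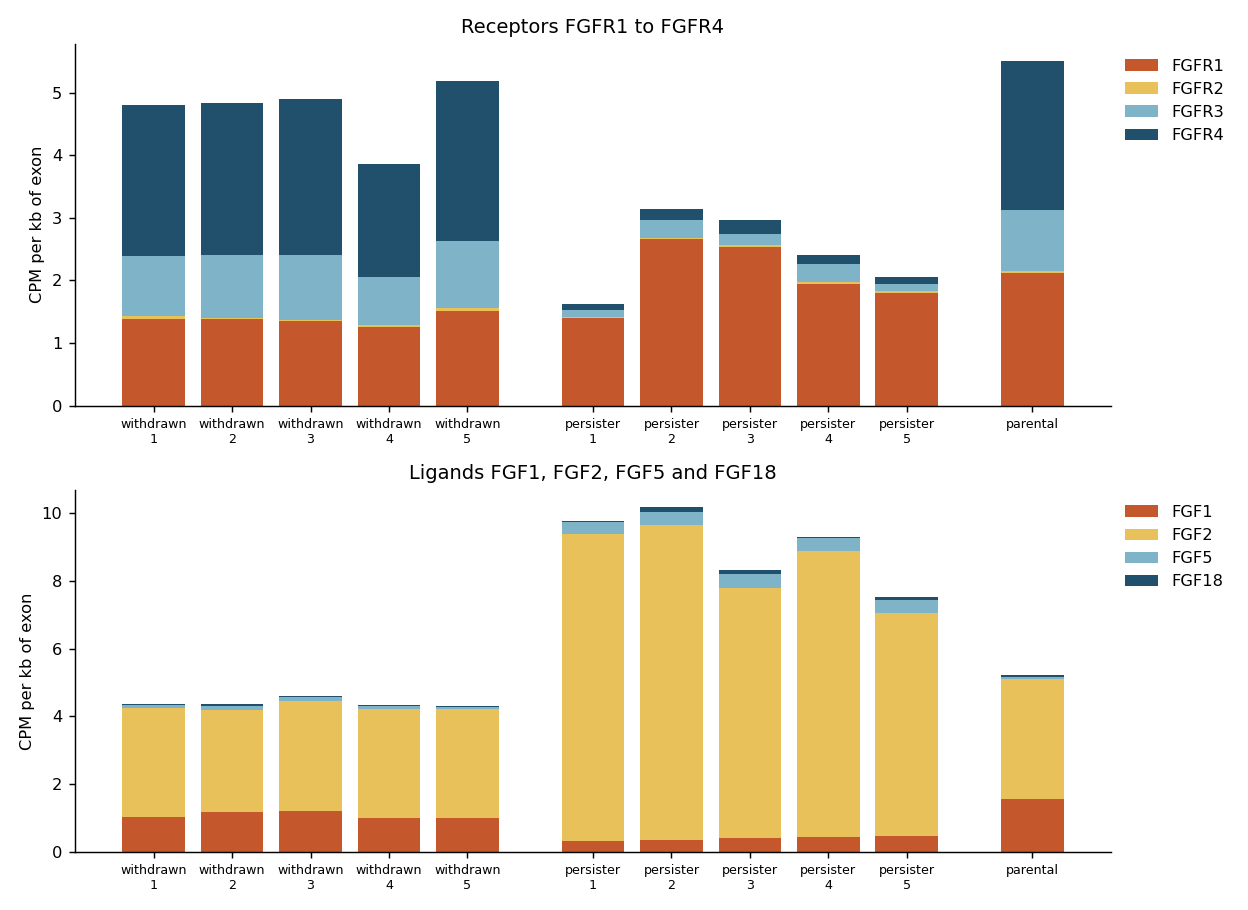
Stacked level of the receptor genes FGFR1 to FGFR4 (top) and of the ligand genes (bottom) in each library, in CPM per kb of exon on the vertical axis. The FGFR4 and FGFR3 segments are small in the 5 persister bars, and the FGF2 segment is taller there than in the other bars.

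The order of the levels per length differed between the groups. In withdrawn cells it ran FGFRL1 (16.3 ± 0.989 CPM per kb), FGF2 (3.18 ± 0.0922), FGFR4 (2.34 ± 0.300), FGFR1 (1.38 ± 0.0927), FGF1 (1.08 ± 0.0935), FGFR3 (0.962 ± 0.124), FGF5 (0.102 ± 0.0180), FGFR2 (0.0365 ± 0.0187) and FGF18 (0.0263 ± 0.0114). Neighbours whose libraries overlapped were FGF1 with FGFR3 and FGFR2 with FGF18. In persister cells FGFRL1 (18.3 ± 3.25 CPM per kb) and FGF2 (8.16 ± 1.15) were followed by FGFR1 (2.07 ± 0.524), FGF1 (0.396 ± 0.0583), FGF5 (0.376 ± 0.0217), FGFR3 (0.199 ± 0.0866), FGFR4 (0.148 ± 0.0497), FGF18 (0.0810 ± 0.0549) and FGFR2 (0.0220 ± 0.0140). There FGF1 overlapped FGF5, and each of FGFR3, FGFR4, FGF18 and FGFR2 overlapped the next. The parental library had FGFRL1 at 20.6, FGF2 at 3.55, FGFR4 at 2.37, FGFR1 at 2.12, FGF1 at 1.55 and FGFR3 at 0.978 CPM per kb, with FGF5, FGF18 and FGFR2 below 0.1. The order of FGFR1 and FGFR4 in parental cells turns round with the longest transcript as length, as the shares above show.

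After withdrawal no member was called against parental cells: 0 of 9 passed the adjusted threshold with edgeR and 0 with DESeq2 or limma-voom, and 2 of 9 had an unadjusted p under 0.05 with edgeR. Over all genes 0.431% were called, 0.312% higher and 0.118% lower. FGFR4 and FGFR3 had log2 fold changes of -0.02 (95% confidence interval -0.79 to 0.75) and -0.02 (-1.02 to 0.97). The 2 with a low unadjusted p were FGFR1 (log2 fold change -0.62, 95% confidence interval -1.19 to -0.06, adjusted p = 0.280) and FGF1 (log2 fold change -0.51, 95% confidence interval -1.02 to -0.01, adjusted p = 0.320). For FGFR1, FGFRL1, FGF1, FGF2 and FGF18 the parental value lay above all 5 withdrawn libraries, and for FGF5 below them. For FGF18 this rests on 6 parental reads against 2 to 5 reads in the withdrawn libraries. A lone library can fall outside the range of 5 others without a difference. The share of all genes that did so was not counted, so these positions are a description only. With the 6 withdrawn and parental libraries alone FGFR1 (adjusted p = 4.70e-04), FGFRL1 (log2 fold change -0.36, adjusted p = 0.00434) and FGF1 (adjusted p = 0.0175) were called lower, 3 of 8 members tested, where 14.4% of all genes were called lower. That fit takes the lone parental library to vary as little as the withdrawn ones.

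Other genes of the FGF pathway were counted against the shares of all genes called, 16.1% higher and 15.1% lower in persister against parental cells and 24.5% higher and 28% lower in withdrawn against persister cells, with median log2 fold changes of 0.09 and -0.03 over all genes. Of 14 further secreted ligands, 3 passed the filter on low counts. FGF7 rose in persister against parental cells, and FGF7, FGF10 and FGF22 fell in withdrawn against persister cells. FGF7, a growth factor for epithelia that binds a splice form of FGFR2, stood at 0.741, 0.525, 0.534, 0.769 and 0.592 CPM in withdrawn libraries 1 to 5, at 0.353, 9.90, 2.24, 4.39 and 5.94 CPM in persister libraries 1 to 5 and at 0.122 CPM in the parental one. Persister library 1 lay below the withdrawn libraries and the other 4 above them, and both FGF7 calls (adjusted p = 0.0300 and 0.00366) ended with limma-voom. The call against parental cells also ended with no filter on low counts (adjusted p = 0.0859) and with the libraries of the 2 groups alone (adjusted p = 0.124). FGF10 had 0 reads in all 5 withdrawn libraries, 7, 54, 3, 11 and 10 reads in persister libraries 1 to 5 (0.0456 to 0.996 CPM) and 1 read in the parental library. It reached the minimum count of 10 only in persister libraries, so it entered the test through the group where it was high. FGF22 had 4, 1, 6, 2 and 2 reads in withdrawn libraries 1 to 5, 13, 25, 10, 11 and 19 reads in persister libraries 1 to 5 and 12 reads in the parental library. Of the 4 intracellular FGF homologous factors, which bind sodium channels and not receptors, 3 fell and 0 rose in persister against parental cells and 3 rose and 1 fell in withdrawn against persister cells. FGF13 stood at 34.3 ± 2.08 CPM in withdrawn, 4.08 ± 1.03 CPM in persister (SD, n = 5 each) and 25.4 CPM in parental cells, and FGF14 at 0.579 ± 0.198, 0.0460 ± 0.0323 and 1.73 CPM.

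A list of 12 genes held inhibitors that FGF signalling induces and also LGALS3, a galectin that is not such an inhibitor. Of these 12, 8 fell and 2 rose in persister against parental cells, and 8 rose and 2 fell in withdrawn against persister cells. The phosphatase DUSP6 had log2 fold changes of -2.76 and 2.91 in the 2 comparisons and SPRY2, a Sprouty inhibitor, -2.70 and 2.73. All 3 ETS factors of the pathway fell and then rose, with ETV4 at 152 ± 6.70 CPM in withdrawn, 15.3 ± 5.47 CPM in persister (SD, n = 5 each) and 142 CPM in parental cells, and ETV5 at 140 ± 5.05, 45.5 ± 7.01 and 141 CPM. The exceptions on the list of 12 were SPRY3 (log2 fold changes 2.02 and -1.17, both called), LGALS3 (1.19, called, and -0.30, not called), IL17RD (0.76, not called, and -1.50, called) and SPRY1, called in neither. The median log2 fold change was -0.97 and 1.00 for the list of 12 and -1.63 and 1.62 for the ETS factors. The lists were chosen with earlier results of these data known.

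Among 39 co-receptor, carrier and heparan sulfate genes tested, 11 rose and 10 fell in persister against parental cells, and 14 rose and 18 fell in withdrawn against persister cells, with median log2 fold changes of 0.26 and -0.15. EXT1, a polymerase of heparan sulfate, was at 71.1 ± 5.14 CPM in withdrawn, 303 ± 41.0 CPM in persister (SD, n = 5 each) and 49.9 CPM in parental cells. GLCE, an epimerase of the same chains, and the syndecan SDC3 went the other way, with GLCE at 55.8 ± 2.23, 18.1 ± 2.79 and 69.2 CPM and SDC3 at 406 ± 33.7, 58.5 ± 16.2 and 376 CPM. Of 22 adaptor and relay genes, 3 rose and 6 fell in persister against parental cells, among them CBL (3.12-fold), and 11 rose and 5 fell in withdrawn against persister cells, with GAB2 2.85-fold higher. Their median log2 fold changes were -0.31 and 0.26, and the share that rose in persister cells was close to that of all genes. GAB2, an adaptor of PI3K and SHP2, was the single gene of these lists called in withdrawn against parental cells (log2 fold change 1.21 ± 0.23 (SE), adjusted p = 0.0487), and the call ended under RLE scaling and without persister library 3 or any 1 withdrawn library (adjusted p up to 0.111). FRS2, the adaptor bound to the receptors, was not called in persister against parental cells (log2 fold change -0.34, adjusted p = 0.258) or in withdrawn against persister cells (-0.16, 0.316). Of 9 regulators of FGFR splicing, 4 fell and 0 rose in persister against parental cells, among them PTBP2 (2.77-fold) and SRSF1 (2.26-fold), and 3 rose and 1 fell in withdrawn against persister cells, with PTBP2 2.16-fold and HNRNPF 1.37-fold higher, with medians of -0.64 and 0.23. In withdrawn against persister cells the share of splicing regulators called was, for so few genes, close to the 52.5% of all genes. Of the 18 S phase and mitosis genes, 0 were called for persister against parental cells. There MCM3 and MCM6 had log2 fold changes of -0.90 and -1.17. They passed the threshold as lower without persister library 2, without library 5, and without libraries 1 and 5 together. In withdrawn against persister cells MCM6 and MCM3 rose 1.87-fold and 1.48-fold (adjusted p = 0.0291 and 0.0481), calls that ended under 6 and 12 of 18 alternatives, both of them without persister library 1.

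**Figure D4:**
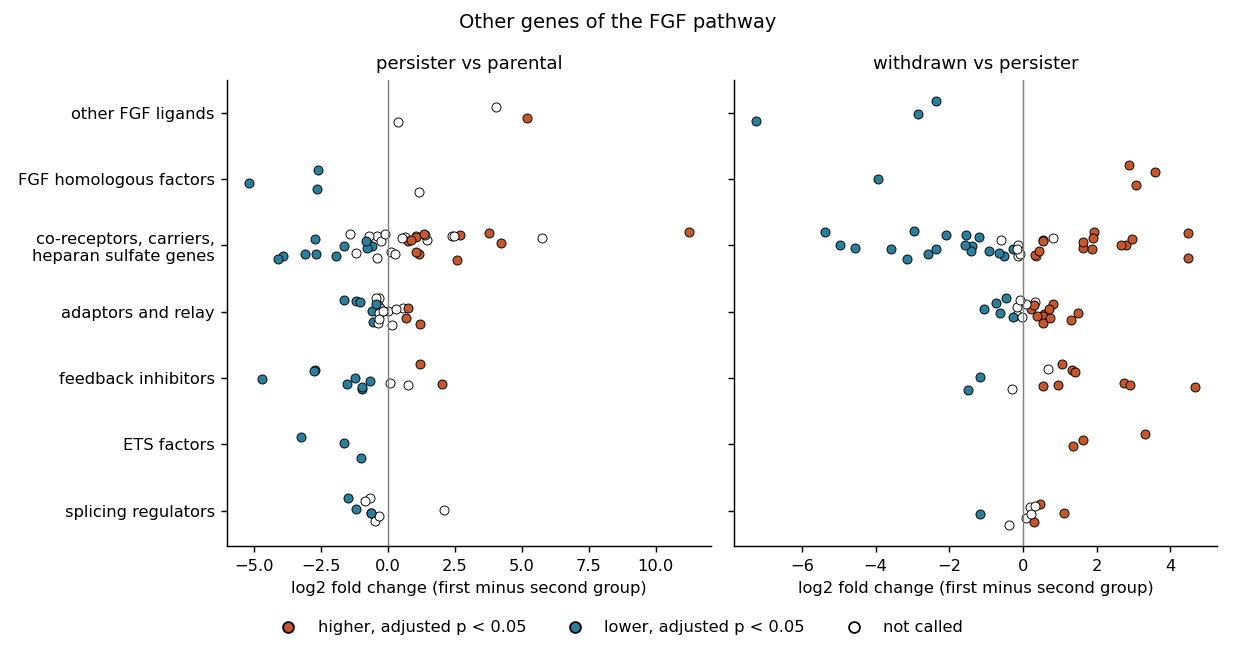
Log2 fold change (horizontal axis, first minus second group) of each tested gene of 7 pathway lists in persister against parental and withdrawn against persister cells; filled points passed an adjusted p of 0.05. Feedback inhibitors, a list that also holds LGALS3, and ETS factors lie mostly left of zero in the first panel and right of it in the second.

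Profiles across the 11 libraries were compared by the root mean square difference of log2 CPM, each gene centred on its own mean, over 10805 protein-coding genes. Nearest to FGF2 were ABCF2 (0.11), ARHGAP17 (0.13) and BAX (0.13), and nearest to FGF5 were HEBP2 (0.16), HOXC13 (0.19) and NTN4 (0.20). FGF1 was nearest to BCL7A (0.13), POU2F1 (0.14) and B3GNT5 (0.15). FGFR3 was nearest to CNTRL (0.19), AFAP1L1 (0.25) and SPATA13 (0.25), and FGFR4 to SOX5 (0.30), CLMN (0.33) and INPP5F (0.43). SOX5 averaged 408 CPM in withdrawn, 27.1 CPM in persister and 483 CPM in parental cells. FGFR1 was nearest to MPHOSPH6 (0.14) and SPATA33 (0.14). FGF18, with its few reads, came no closer than 0.45 to any of these 10805 genes, the nearest being GCNT1, IGFBP4 and MGAT5B.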

How the data were processed

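The authors deposited 1 table of raw read counts per gene, whole numbers that were not normalized, with 1 column for each of the 11 libraries. Per the submitters' processing notes, bcl2fastq, HISAT2 and HTSeq were used with hg38, and per the labels' protocols the libraries were stranded and poly(A)-selected. Their versions, the annotation release and the strand setting are not stated in what was used here. All IDs matched GENCODE 29 (GRCh38, 1-based), which gave symbols and exon lengths.

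Counts were analysed with edgeR 4.0.16 in R 4.3.3: filterByExpr (minimum count 10, minimum total 15), TMM scaling, a robust quasi-likelihood fit of 3 groups with 8 residual degrees of freedom, and Benjamini-Hochberg adjustment over 23693 genes (threshold 0.05). The parental group has 1 library and was taken to vary like the others. Log2 CPM used a prior count of 2. The alternatives used DESeq2 1.42.0, limma 3.58.1, other filters and scaling, and left-out libraries. Each standard error (SE) of a fold change was derived from the test itself, as the absolute log2 fold change divided by the square root of the F statistic. Confidence intervals were built from these, are at 95% and cover the spread between libraries as the fit estimates it.

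Members and lists were chosen with earlier results of these data known. Named genes are the members, up to 2 genes of each list with the smallest adjusted p among those called in a comparison, and the 3 nearest profiles of each called member. Some genes that this rule gives are not reported here. A few others named beside a result were chosen after their values were seen. Withdrawn samples are titled after a persister culture, which pairs them by number. Deviations of same-numbered libraries from their group means had gene-wise correlations of 0.0484 to 0.0909, above those with any other number in 5 of 5 cultures. No 2 libraries of a group were copies: counts differed at 29971 or more genes in each pair.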

Additional observations from a re-analysis of the deposited data

Results flagged for a closer look

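Of 18 groups of 5 libraries tested, 2 held a library far from the other 4, where chance gives about 1 in 20. FGFR4 stood at 8.76 CPM in withdrawn library 4, against 11.6 to 12.3 CPM in the other withdrawn libraries. FGFR3 (3.66 CPM), FGFR1 (17.3 CPM) and FGF1 (5.27 CPM) were also at their lowest withdrawn value there. FGFR2, FGFRL1, FGF2, FGF5 and FGF18 were not. FGF2 stood at 20.5 CPM in withdrawn library 2, against 21.7 to 22.04 CPM in the others, a small gap in a tight group.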

How the results depend on the processing

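No called value of a member changed direction under the alternatives run; FGFR1 in persister against parental cells, not called, had -0.03 and, without persister libraries 1 and 5, 0.17 (log2), and the uncalled values of FGFR2, FGFR3 and FGFR4 in withdrawn against parental cells also crossed zero under some alternatives. The 5 calls of persister against parental cells and the calls of FGFR1, FGFR3, FGFR4, FGF1, FGF2 and FGF5 in withdrawn against persister cells held under every alternative run. Of 462 member values, 447 kept their side of the threshold, 9 lost it (all FGF18) and 6 gained it (FGFR1, FGFRL1 and FGF1). The replicate block by culture number left 6 members called in withdrawn against persister cells, with FGF18 not tested there, and 10630 genes; it changed no other call of a member. For the FGFR1 share the exact paired permutation test kept the difference at -55.8 points with p = 0.0625, the smallest 5 pairs can give. It was -39.9 points without length (54.1% in withdrawn and 94.0% in persister cells) and -50.8 points with the longest basic transcript as length, a choice made after seeing the data (40.0% and 90.8%).

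Withdrawn against parental cells was the comparison that moved. Its 102 genes called (74 higher, 28 lower) became 1184 (775 and 409) with DESeq2, 155 (49 lower) with at least 10 counts in 5 libraries, and 51 lower with limma-voom. They became 6593 (3483 and 3110) with the libraries of the 2 groups alone, where 3 members were called, 3 of them lower. Without persister libraries 1 and 5, an alternative chosen after seeing the data, they became 2086 (1241 and 845), with 1 member, FGFR1, called, 1 lower. Leaving out 1 library at a time gave 23 to 558 genes, 19 to 374 higher and 4 to 184 lower. For persister against parental cells the libraries of the 2 groups alone gave 2569 genes (1354 higher, 1215 lower), against 7391. The cause was not tested. With 1 parental library, differences from it have no replicate check on that side, and FGFR2 and FGF18 are limited by their few reads.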
